A study of Capra hircus with 20 samples.

Results

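The 10 genes described here are PDGFRA, CSPG4, SOX10, OLIG1, OLIG2, NKX2-2, GPR17, BCAS1, ENPP6 and MYRF, which mark the oligodendrocyte lineage from the progenitor to the newly formed oligodendrocyte. The rule names them and uses no measured value, although earlier results of these data were known when the genes were chosen. Each symbol was matched through its NCBI gene number in the goat annotation ARS1.2. All 10 were found among the 21071 genes with values, and all 10 passed the filter on low values. RNA was sequenced from the hypothalamus of 20 female Jining grey goats, with 1 library per goat and 5 goats at each of 4 stages. The stages were 1 day of age (D1), 60 days (M2), 120 days (M4) and 180 days (M6). The goats came from 1 breeding farm and were kept under the same feeding management, and age was the only factor described as separating the groups. The paper states that the goats were slaughtered on the same day. Goats of different stages were thus born at different times, and age and time of birth cannot be told apart. Values are FPKM, fragments scaled to gene length and to the mapped fragments of the library. The values hold no read counts, so the counting error of a gene was not calculated.

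Oligodendrocytes wrap axons of the central nervous system in myelin. They arise from progenitor cells that carry the PDGFRA and CSPG4 proteins on their surface, divide in response to platelet-derived growth factor, and persist in the adult brain. A progenitor that commits to differentiation loses PDGFRA, passes through a short stage marked by GPR17 and BCAS1, then expresses ENPP6 and the transcription factor MYRF, and MYRF switches on the genes of the myelin sheath. SOX10, OLIG1, OLIG2 and NKX2-2 are transcription factors of the lineage, and SOX10 and OLIG2 are present from the progenitor to the mature cell. In whole tissue, fewer cells of a type and less RNA per cell cannot be told apart.

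Libraries of the same stage differed in 2 ways that bear on these genes. The mean level of 16 mature myelin genes, such as MOG, MAG and CNP, was lowest in M4 replicate 1 (2.99 on the log2 scale), D1 replicate 4 (3.76), M6 replicate 4 (3.87) and M4 replicate 2 (4.44), and the other 16 libraries lay between 5.00 and 7.28. The 4 lowest libraries therefore came from D1, M4 and M6, with none from M2, and the counts, medians and relations of the lineage genes are also given without them where they move. The summed FPKM of 10 neuron markers was between 1327 and 2992 in these 4 libraries and between 136 and 1571 in the other 16, and the summed FPKM of 9 astrocyte markers was between 2068 and 4348 against 3061 to 6766. The part of these differences in the results was not tested. The tissue label was checked against 6 genes that define hypothalamic nuclei (AVP, OXT, HCRT, PMCH, SIM1 and OTP). In 4 libraries 0 of the 6 reached 1 FPKM, in 12 libraries at most 2 did, and in 5 libraries 5 or 6 did, so these markers were absent or nearly absent from many libraries.

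PDGFRA, the receptor for platelet-derived growth factor and the defining surface protein of the progenitor, lies on chromosome 6 from 70285928 to 70334333. Its FPKM at D1 was 69.1, 48.1, 38.4, 28.0 and 44.5 in replicates 1 to 5. The corresponding values were 38.3, 30.9, 31.7, 31.6 and 45.4 at M2, 28.2, 26.1, 31.7, 36.4 and 30.8 at M4, and 33.5, 34.3, 29.5, 37.3 and 37.0 at M6. The highest value of the 20 was thus in a goat of 1 day, but D1 replicate 4 was below every library of M2 and M6, and the groups overlapped. The mean was 45.6 FPKM ± 15.2 (SD, n = 5) at D1 and 30.6 ± 3.90 at M4, and it was 35.6 ± 6.28 at M2 and 34.3 ± 3.16 at M6. PDGFRA varied least of the 10 genes, with a within-stage SD of 0.29 on the log2 scale, which was at percentile 8.22 of all genes tested.

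CSPG4, the NG2 proteoglycan of progenitors and also of pericytes (chromosome 21, 32626630 to 32662146), had the lowest mean FPKM of the lineage genes over the 20 libraries (1.39), next to NKX2-2 (1.51), and its FPKM over the 20 libraries ranged from 0.477 to 4.60 with a median of 1.17. Its mean was 1.28 FPKM ± 0.393 (SD, n = 5) in D1 goats and 1.63 ± 1.69 in M2 goats, and it was 0.932 ± 0.319 in M4 and 1.72 ± 0.807 in M6 goats. The wide spread at M2 came with a single library, replicate 3, at 4.60 FPKM, where the next highest was 1.36. The summed FPKM of 8 pericyte and smooth muscle markers ranged from 83.2 to 266.6 over the stages. The relation of CSPG4 to the mean log2 level of these 8 markers did not pass the test over 20 libraries (Pearson's r = 0.36, adjusted permutation p = 0.306).

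SOX10 (chromosome 5, 108687310 to 108698082) drives the oligodendrocyte programme and works with MYRF on myelin genes. Its FPKM was 13.5, 12.4, 12.2, 1.84 and 10.1 at D1, and 3.56, 7.64, 16.2, 3.59 and 7.17 at M2. At M4 it was 0.877, 2.67, 11.9, 7.23 and 9.14, and at M6 it was 9.79, 5.68, 15.3, 1.63 and 13.9. Each stage held both low and high libraries, the highest M4 library was 13.5 times the lowest, and the 4 groups overlapped almost over their whole ranges.

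OLIG1 and OLIG2, the paired basic helix-loop-helix factors of the lineage, are neighbours on chromosome 1, with OLIG1 from 943735 to 945922, OLIG2 from 991047 to 993484 and 45124 bases between them. OLIG1 FPKM was 71.0, 66.9, 68.2, 19.0 and 70.3 at D1, and 41.6, 49.1, 81.1, 39.6 and 58.2 at M2. It was 9.35, 28.0, 40.0, 34.8 and 50.4 at M4, and 42.9, 50.6, 79.9, 25.6 and 92.8 at M6. Of the D1 libraries 4 lay close together between 66.9 and 71.0 FPKM, above every library of M4, and the fifth was below 4 of the 5 libraries of M4. OLIG2 ranged from 3.18 to 19.9 FPKM over the 20 libraries, with stage means of 14.7 ± 6.24 (SD, n = 5) in D1, 12.4 ± 2.34 in M2, 9.41 ± 5.12 in M4 and 11.9 ± 4.58 in M6 goats. Per length, OLIG1 was the more abundant of the pair in 20 of 20 libraries, by a ratio of FPKM between 2.46 and 7.13 with a median of 4.03. NKX2-2, a homeodomain factor that is raised as progenitors start to differentiate (chromosome 13, 40119510 to 40122548), ranged from 0.300 to 2.63 FPKM, and its stage means were between 1.40 FPKM at M4 and 1.57 at M2.

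GPR17 (chromosome 2, 131644460 to 131651795) is a receptor of committed progenitors that is lost as they mature. Its FPKM was 18.6, 4.37, 16.3, 1.41 and 6.63 at D1, and 3.24, 4.46, 5.73, 2.14 and 17.7 at M2. It was 0.797, 4.27, 2.57, 2.75 and 2.14 at M4, and 1.82, 2.12, 2.84, 1.04 and 13.8 at M6. All 5 libraries of M4 were below 5 FPKM, and each of the other 3 stages held at least 1 library above 13 FPKM beside others as low as those of M4.

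BCAS1 (chromosome 13, 80971242 to 81070262) marks early myelinating oligodendrocytes and was the most abundant of the 10 genes by mean FPKM. It ranged from 15.8 to 252 FPKM over the 20 libraries, and its stage means were 136 ± 85.4 (SD, n = 5) in D1, 96.0 ± 49.2 in M2, 84.2 ± 60.5 in M4 and 142 ± 87.1 in M6 goats. ENPP6, a choline phosphodiesterase of the newly formed oligodendrocyte (chromosome 27, 30770665 to 30850376), was the most variable, with a within-stage SD of 1.76 on the log2 scale, at percentile 98.2 of all genes tested. Its FPKM was 83.8, 72.6, 80.9, 4.74 and 23.5 at D1, and 8.13, 9.16, 34.3, 8.17 and 39.0 at M2. It was 1.57, 3.14, 15.8, 18.7 and 53.0 at M4, and 70.6, 11.2, 41.3, 2.19 and 31.4 at M6. The 3 highest values were all from D1, and the same stage held a library that was below every library of M2.

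MYRF (chromosome 29, 40551540 to 40584188), the switch for myelin genes, had FPKM of 7.02, 5.77, 8.23, 0.434 and 5.83 at D1, and 5.91, 5.20, 12.6, 2.36 and 4.71 at M2. It was 0.321, 1.93, 10.1, 7.88 and 6.0 at M4, and 8.14, 5.36, 9.67, 0.629 and 10.1 at M6. The stage means of MYRF lay between 5.25 FPKM at M4 and 6.79 at M6, a difference smaller than the SD within any of the 4 stages. The median within-stage SD was 1.04 on the log2 scale for the 10 lineage genes, 1.51 for the 16 mature myelin genes and 0.57 for all 16771 genes tested. The plot of FPKM by stage shows this spread for each gene.

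**Figure D1:**
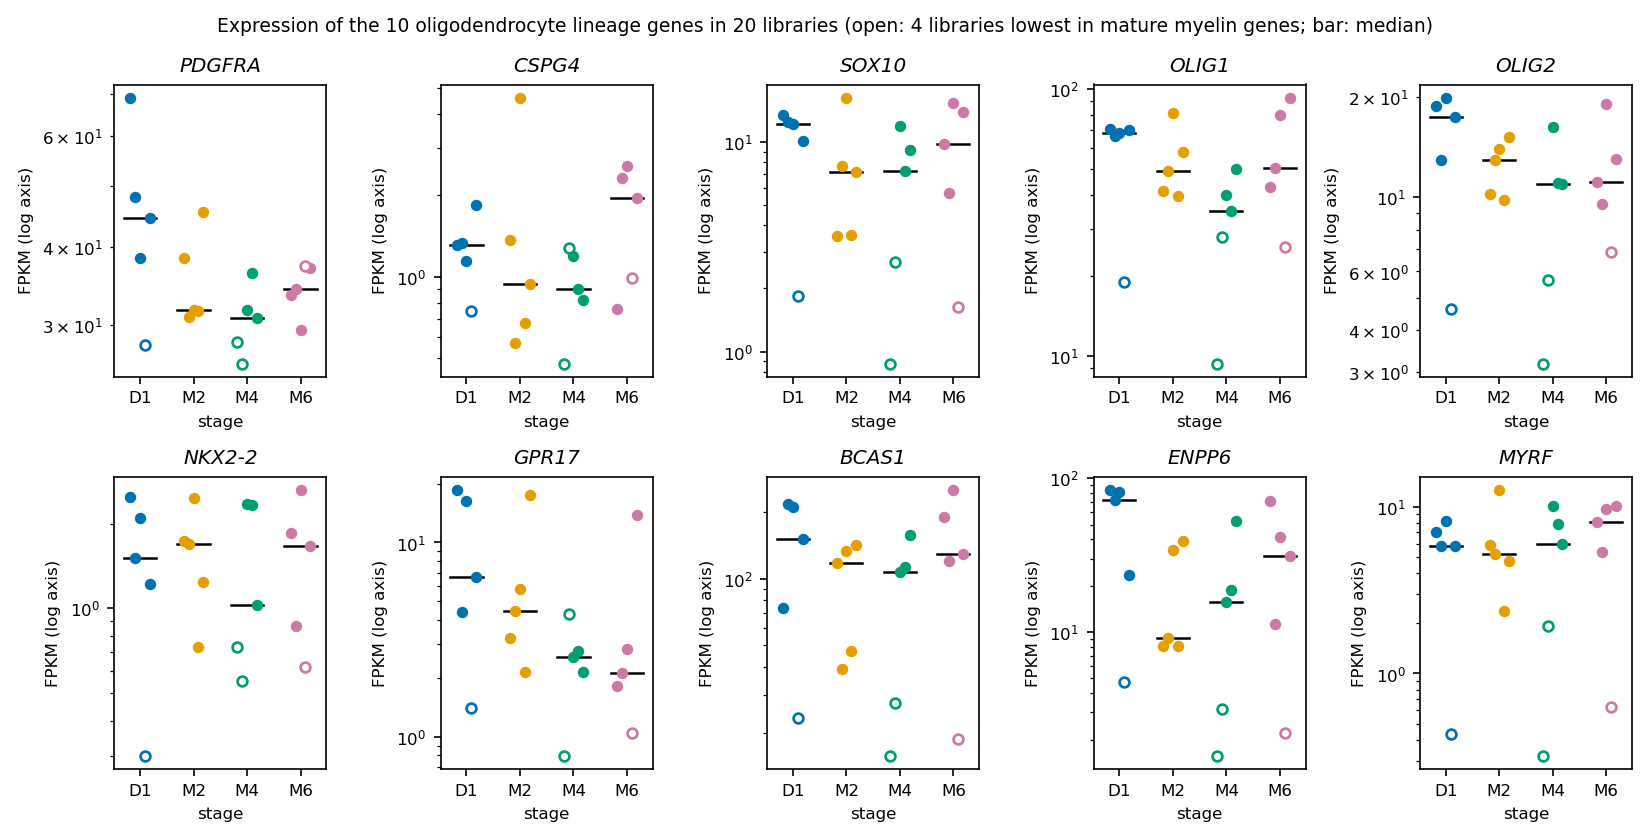
FPKM (log axis) of the 10 lineage genes in the 5 libraries of each stage, where each point is 1 goat, bars are stage medians and open points are the 4 libraries lowest in mature myelin genes. For SOX10, OLIG1, OLIG2, NKX2-2, BCAS1, ENPP6 and MYRF the open points are the lowest 4 of the 20, and the stages overlap for every gene.

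To ask whether these genes differ between developmental stages, log2(FPKM + 0.1) was tested with limma over all 16771 genes that passed the filter, with Benjamini-Hochberg adjusted p-values. A call needed a log2 fold change of 1 or more in either direction beside an adjusted p under 0.05. None of the 10 lineage genes was called in any of the 6 comparisons of stages, in the mean of the later stages (M2, M4 and M6) against D1, or in the test over the 4 stages at an adjusted p under 0.05. Few genes were called in all, namely 0.0537% of genes tested between M4 and D1, 0.00596% between M6 and D1, 0.0596% in the later stages vs. D1, 0.00596% at an adjusted p under 0.05 in the test over 4 stages, and 0% in the 4 other comparisons. At an unadjusted p under 0.05, PDGFRA and GPR17 were lower in M4 vs. D1, where 8.71% of all genes reached that p and 6.21% did so with lower values, and PDGFRA was lower in the later stages vs. D1, where 11.7% did and 7.04% did so with lower values. Leaving out D1 replicate 1, the library highest in both genes, moved PDGFRA in the later stages vs. D1 from -0.39 to -0.23 and GPR17 from -1.05 to -0.69, and the unadjusted p of PDGFRA was 0.145 without it in limma. With each of the 20 libraries left out in turn, PDGFRA stayed under an unadjusted p of 0.05 in 18 of 20 fits of the later stages vs. D1 and 19 of 20 of M4 vs. D1, and GPR17 in 14 of 20 of M4 vs. D1. None of the 10 reached it in M2 vs. D1 (15.6% of all genes), M6 vs. D1 (7.41%), M4 vs. M2 (8.68%), M6 vs. M2 (6.14%), M6 vs. M4 (6.87%) or the test over 4 stages (10.4%). For 0 of the 10 genes did the groups fail to overlap, against 3.82% of all genes for M2 and D1, 1.93% for M4 and D1, 2.84% for M6 and D1, 1.09% for M4 and M2, 0.757% for M6 and M2, 0.775% for M6 and M4, and 0.143% for the later stages and D1. The comparisons with D1 share the same 5 D1 libraries. Without the 4 libraries lowest in mature myelin genes, again none of the 10 was called. These libraries were left out for a level that most of the 10 genes followed. They include D1 replicate 4, which was in the lowest 4 of the 20 libraries for all 10 genes, and no library of M2. Leaving it out thus raises the D1 mean of these genes by choice. The counts that follow describe this fit and are not a separate test of stage. At an unadjusted p under 0.05 there were then 4 of 10 in M2 vs. D1 (PDGFRA, SOX10, OLIG2 and ENPP6, all lower), where 15.6% of all genes reached that p, and 3 in M4 vs. D1 (PDGFRA, OLIG1 and GPR17, all lower), where 8.79% did. There were 2 in M6 vs. D1 (PDGFRA and GPR17, both lower; 9.14% of all genes) and 4 in the later stages vs. D1 (PDGFRA, OLIG2, GPR17 and ENPP6, all lower; 11.8%). In the other comparisons there were 0 for M4 against M2 (10.7%), 1 for M6 against M2 (BCAS1, higher; 11.2%) and 1 for M6 against M4 (OLIG1, higher; 4.62%).

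No value of the later stages against D1 passed the test. ENPP6 had a log2 fold change of -1.33 (95% interval -3.02 to 0.36, limma adjusted p = 0.531), and GPR17 had -1.05 (-2.26 to 0.15, adjusted p = 0.482). PDGFRA had a smaller value with a narrower interval, -0.39 (-0.73 to -0.06, adjusted p = 0.345). The intervals of SOX10 (-1.66 to 0.74), BCAS1 (-1.61 to 0.92) and MYRF (-1.34 to 1.65) each held both a fall and a rise of more than 1.5-fold, so changes of that size could not be detected at this spread. In M4 vs. D1 all 10 genes had negative values, against 56.3% of all genes tested, and their median was -0.73 against -0.07 for all genes. ENPP6 was at -1.87 (-3.94 to 0.20, adjusted p = 0.617), GPR17 at -1.54 (-3.01 to -0.07, adjusted p = 0.558), OLIG1 at -0.91 (-1.82 to 0.01, adjusted p = 0.576) and PDGFRA at -0.52 (-0.92 to -0.12, adjusted p = 0.465). M4 held 2 of the 4 libraries lowest in mature myelin genes, and without the 4 libraries the M4 vs. D1 value of MYRF turned from -0.27 to 0.23 and that of NKX2-2 from -0.08 to 0.02.

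**Figure D2:**
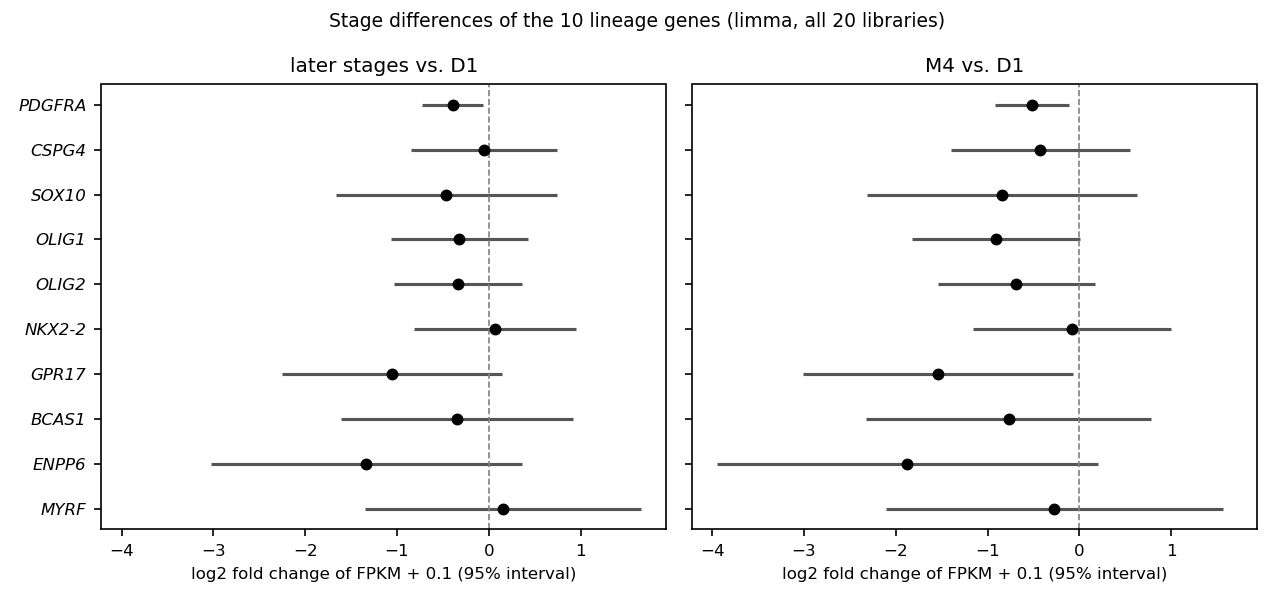
Log2 fold changes of FPKM + 0.1 for the 10 lineage genes in the later stages vs. D1 (left) and M4 vs. D1 (right), where points are limma estimates over 20 libraries and lines are 95% intervals. Most lines cross 0, and PDGFRA at -0.39 and -0.52 has the shortest.

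The direction of the 10 genes was not the same in every comparison. They were lower for 8 of 10 genes in M2 vs. D1 (55.2% of all genes), 6 of 10 in M6 vs. D1 (55.1%), 10 of 10 in M4 vs. M2 (51.7%) and 5 of 10 in M6 vs. M2 (48.1%), and for 0 of 10 in M6 vs. M4 (46.1%). Their medians were -0.21, -0.10, -0.54 and -0.01 on the log2 scale in the first 4 of these and 0.62 in M6 vs. M4. In the later stages vs. D1, 8 of 10 were lower (56.9% of all genes), with a median of -0.34. The 10 genes were correlated with each other over the libraries, so these counts are not counts of independent genes. Without the 4 libraries lowest in mature myelin genes, fewer libraries were left at D1, M4 and M6, and the limit given above for leaving them out holds here too. The number of lower genes against D1 was then 10 of 10 at M2 (54.6% of all genes), 8 at M4 (56.5%), 7 at M6 (57.4%) and 9 in the mean of the later stages (58.0%). Their medians were -0.47, -0.47, -0.16 and -0.43. Between the later stages the number was 4 of 10 at M4 against M2 (51.5%), 2 at M6 against M2 (52.1%) and 1 at M6 against M4 (51.9%), with medians of 0.15, 0.39 and 0.26.

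Several lists of markers of other cells and of the tissue also had mostly negative values at M4. In M4 vs. D1 the values were negative for 10 of 10 hypothalamus markers tested (median -0.87), 9 of 9 fibroblast and meningeal markers (-1.01), 8 of 8 endothelial markers (-0.23), 9 of 10 microglia markers (-0.21), 8 of 9 astrocyte markers (-0.16) and 5 of 10 neuron markers (0.11). In M4 vs. M2 they were negative for 10 of 10 microglia markers (median -0.52), 9 of 9 fibroblast and meningeal markers (-0.69) and 8 of 10 hypothalamus markers (-0.94). In M6 vs. M4 they were negative for 1 of 10 hypothalamus markers (median 1.86) and 0 of 10 microglia markers (0.66). Neuron markers went the other way, negative for 3 of 10 in M4 vs. M2 (median 0.30) and 7 of 10 in M6 vs. M4 (-0.76). Without the 4 libraries, 10 of 10 hypothalamus markers (median -0.80), 9 of 9 fibroblast and meningeal markers (-1.37), 5 of 8 endothelial markers, 4 of 10 microglia markers and 2 of 9 astrocyte markers were negative in M4 vs. D1. Neuron markers were then negative for 8 of 10 (median -0.64), and 56.5% of all genes tested were. The part of these markers in the values of the lineage genes was not tested.

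The other genes of the lineage were read from fixed lists, of which no gene was called in any comparison of the 20 libraries. Without the 4 libraries lowest in mature myelin genes, RRAS2 was called lower in M2 vs. D1, M6 vs. D1 and the later stages vs. D1 (log2 fold changes -1.36, -1.48 and -1.40, limma adjusted p = 0.0386, 0.0306 and 0.00773), and the myelin gene CNP was called lower in M2 vs. D1 (-1.67, limma adjusted p = 0.0454), both named after their values were seen. CNP is among the mature myelin genes whose mean picked the 4 libraries. These include a low library of D1 and none of M2, so the choice itself favours a lower value of CNP in M2 vs. D1. The call of CNP is therefore no test of a change with stage. The calls of RRAS2 come from the same fit, which was chosen after the data were seen. With all 20 libraries the limma adjusted p of RRAS2 was 0.23, 0.446 and 0.142 for M2, M6 and the later stages against D1. Among all genes, the fit without the 4 libraries called 41 at M2 and 49 in the later stages against D1. With all 20 libraries these numbers were 0 and 10. The calls of RRAS2 are thus not a separate test of stage. Over the 20 libraries, 11.7% of all genes tested reached an unadjusted p under 0.05 in the later stages vs. D1. The share with lower values was 7.04%. Of 17 other progenitor genes tested, such as VCAN, PTPRZ1 and LHFPL3, 0 reached that p in this comparison. Their median was 0.04 against -0.07 for all genes. SOX5, a factor of the progenitor state, had the smallest p of these in M2 vs. D1, with 12.5 FPKM ± 1.63 (SD, n = 5) at D1 and 17.7 ± 5.12 at M2 (log2 fold change 0.46, limma adjusted p = 0.335). Of 12 genes of committed and newly formed oligodendrocytes, 3 reached an unadjusted p under 0.05, all lower in the later stages (FYN, RRAS2 and SIRT2, named after their values were seen), and the median of the 12 was -0.25. RRAS2, a small GTPase, had 46.9 FPKM ± 23.5 at D1 and 21.1 ± 4.93 at M2 (log2 fold change -0.96, limma adjusted p = 0.23 in M2 vs. D1). Of the 17 mature myelin genes tested, MYRF included, 0 reached it, and their median was -0.43. TSPAN2, a tetraspanin of oligodendrocytes, had 8.63 FPKM ± 2.28 at D1 and 4.73 ± 1.80 at M2 (log2 fold change -0.89, limma adjusted p = 0.38), but 13.3 ± 17.8 at M4 and 4.20 ± 1.5 at M6. Of 31 ligands, receptors and inhibitors of the lineage, 1 was higher (IGF1R) and 1 was lower (APCDD1) at that p, with a median of 0.0012. IGF1R, the receptor for the growth factor IGF1, had 9.39 FPKM ± 1.58 at D1 and 15.2 ± 3.78 at M2 (log2 fold change 0.68, limma adjusted p = 0.227). Of 15 cell cycle genes, 7 were lower at that p and 0 higher, with a median of -0.64, and CDK1, the kinase that drives mitosis, had 2.44 FPKM ± 0.786 at D1 and 0.922 ± 0.665 at M2 (log2 fold change -1.70, limma adjusted p = 0.164). The cell cycle genes mark any dividing cell, and the cells that held these transcripts are not known from whole tissue. In the 9 lists of markers of other cell types and of the tissue, the smallest limma adjusted p of a list in M2 vs. D1 lay between 0.32 (COL3A1, a collagen of fibroblasts) and 0.823 (LHB, a pituitary hormone subunit). Without the 4 libraries the medians in the later stages vs. D1 were -0.0035 for the other progenitor genes, -0.63 for the committed and newly formed genes, -0.45 for mature myelin, 0.0029 for the ligands, receptors and inhibitors and -0.68 for the cell cycle genes, with 6 of 17 mature myelin genes then lower at an unadjusted p under 0.05 and 1 higher. In that fit 11.8% of all genes tested reached that p. The mature myelin genes, apart from MYRF, also picked the libraries left out, so their values here share the limit given for CNP.

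Within stages, low libraries for most of the lineage were the libraries with low mature myelin genes. For SOX10, OLIG1, OLIG2, NKX2-2, BCAS1, ENPP6 and MYRF, the 4 libraries lowest in mature myelin genes were also the 4 lowest for the gene. For NKX2-2 this was nearly a tie, with 0.727 FPKM as the highest of the 4 and 0.733 as the lowest of the other 16. BCAS1 was between 15.8 and 27.4 FPKM in these 4 libraries and between 39.2 and 252 in the other 16, and ENPP6 was between 1.57 and 4.74 against 8.13 to 83.8. SOX10 was between 0.877 and 2.67 FPKM against 3.56 to 16.2, and MYRF between 0.321 and 1.93 against 2.36 to 12.6. The myelin genes themselves were lower by construction, with MAG, a glycoprotein of the sheath that faces the axon, between 5.43 and 26.7 FPKM against 55.7 to 337. PDGFRA, CSPG4 and GPR17 were not separated in this way. PDGFRA was between 26.1 and 37.3 FPKM in the 4 libraries and between 29.5 and 69.1 in the other 16, of which 10 were at or below 37.3. For CSPG4 and for GPR17, 8 of the 16 were at or below the highest of the 4. This division into 7 genes and 3 was made after the values were seen and is a description.

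The relation was measured on log2 values centred on their stage means, with permutation within stages and adjustment over the 10 genes, against the mean of the 16 mature myelin genes. Of the 10 relations, 8 passed an adjusted p under 0.05 by Pearson's r and 7 by Spearman's rho. SOX10 had r = 0.96 (adjusted permutation p = 0.0001) and rho = 0.85 (adjusted p = 0.000675), and MYRF had r = 0.95 (adjusted p = 0.0003) and rho = 0.84 (adjusted p = 0.000675). OLIG2, OLIG1, ENPP6 and BCAS1 had r of 0.93, 0.91, 0.90 and 0.89, and NKX2-2 had 0.80. GPR17 passed by r only (r = 0.59, adjusted permutation p = 0.0154; rho = 0.46, adjusted p = 0.0631). CSPG4 (r = 0.39, adjusted permutation p = 0.0572; rho = 0.29, adjusted p = 0.222) and PDGFRA (r = 0.35, adjusted permutation p = 0.198; rho = 0.11, adjusted p = 0.671) did not pass.

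Fewer of these relations passed without the libraries that were extreme in the myelin level. Leaving out such libraries narrows the range of that level, which tends to lower r and the power of the test. How far the relations rested on these libraries can therefore not be told from the values below. When the 2 libraries farthest from the median of the myelin level were left out, 7 of the 10 passed, with r of 0.92 for SOX10 and 0.89 for MYRF, and r of 0.30 for GPR17. Without all 4 libraries, 0 of 10 passed and 2 reached an unadjusted p under 0.05. Over those 16 libraries r was 0.78 for SOX10 (adjusted permutation p = 0.0746), 0.68 for OLIG2 (adjusted p = 0.0746), 0.51 for MYRF and 0.35 for BCAS1, and it was -0.31 for PDGFRA. Since the points are libraries of 1 tissue, they also share the differences in neuron and astrocyte markers given above.

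**Figure D3:**
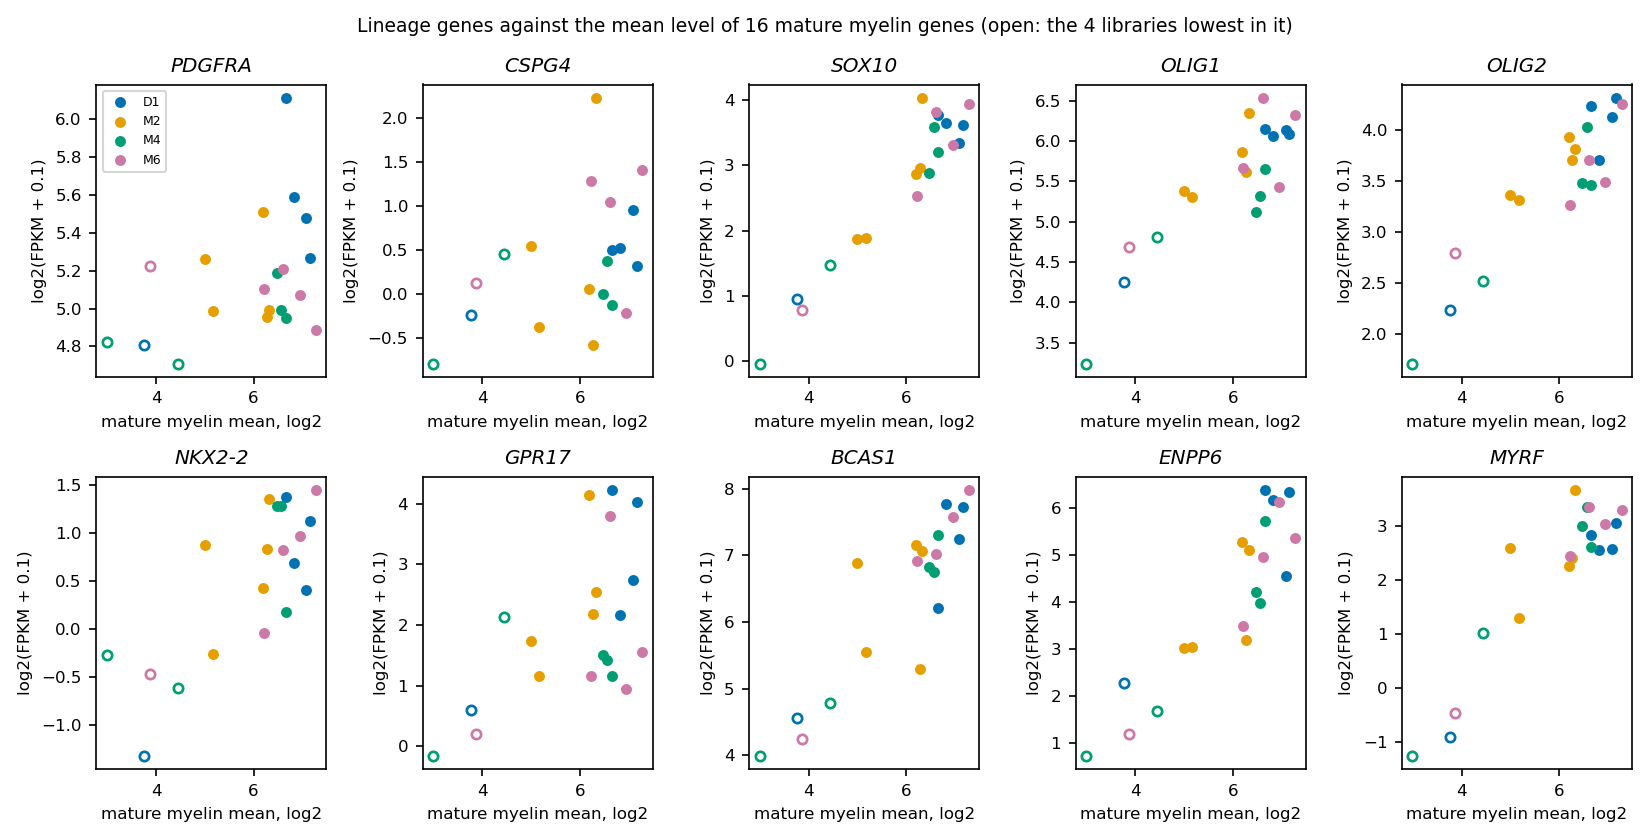
Log2(FPKM + 0.1) of each lineage gene against the mean log2 level of 16 mature myelin genes in the 20 libraries, coloured by stage, with the 4 libraries lowest on the horizontal axis as open points. SOX10 (r = 0.96) and MYRF (r = 0.95) rise along the axis, and PDGFRA (r = 0.35) is more scattered, where r was calculated after centring on stage means.

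The lineage genes were also related to each other. Of the 45 pairs, 32 passed an adjusted permutation p under 0.05 by Pearson's r, 29 by Spearman's rho and 29 by both, and 0 of the 45 had a negative r. All 21 pairs among SOX10, OLIG1, OLIG2, NKX2-2, BCAS1, ENPP6 and MYRF passed, with r between 0.71 and 0.96. The strongest pairs were SOX10 with MYRF (r = 0.96) and SOX10 with OLIG1 (r = 0.94), and the neighbours OLIG1 and OLIG2 had r = 0.90. Of the 24 pairs that hold PDGFRA, CSPG4 or GPR17, 11 passed by r and 8 by rho, and PDGFRA was in none of them. The highest r of PDGFRA was with GPR17 (r = 0.52, adjusted permutation p = 0.0682). Leaving out the 2 libraries farthest from the median left 21 of 45 pairs, and leaving out the 4 libraries lowest in mature myelin genes left 1 of 45, with 8 at an unadjusted p under 0.05. These 4 libraries were also the lowest for most of the genes, so the range of the values was narrowed here as well. The 1 pair was NKX2-2 with MYRF (r = 0.84 over 16 libraries, adjusted permutation p = 0.0153), whereas SOX10 with MYRF had r = 0.79 (adjusted p = 0.129) and OLIG1 with OLIG2 had r = 0.56.

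**Figure D4:**
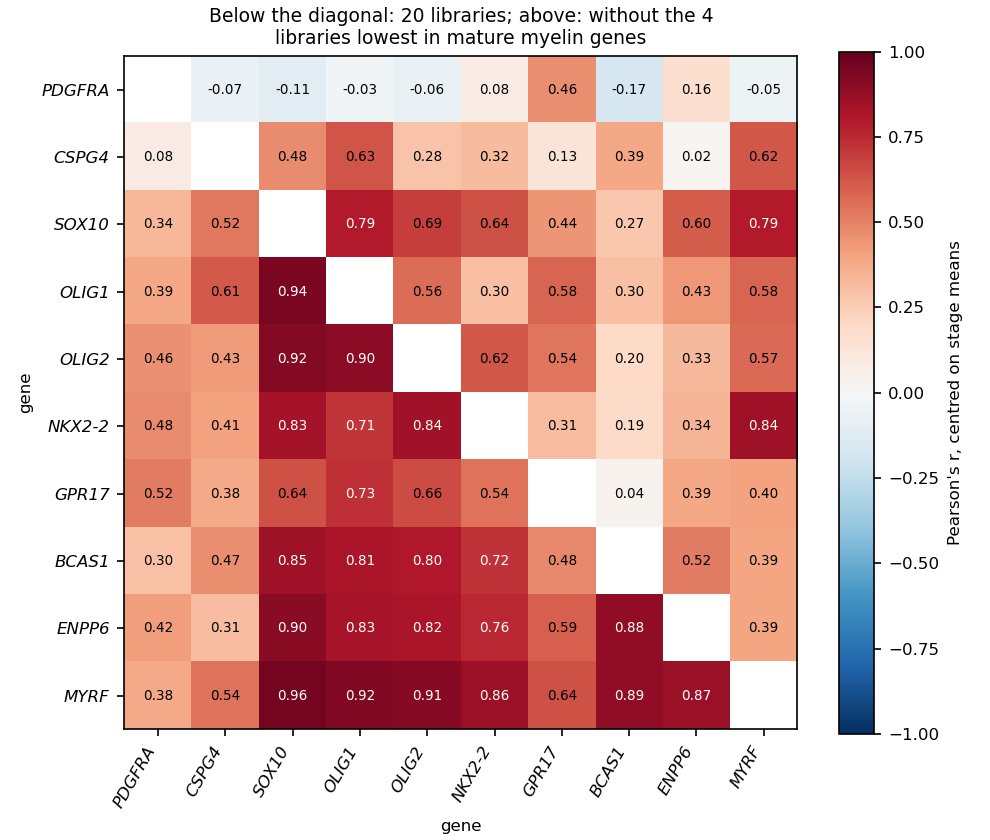
Pearson's r between the lineage genes on stage-centred log2(FPKM + 0.1), with 20 libraries below the diagonal and the 16 libraries without the 4 lowest in mature myelin genes above it. The block from SOX10 to MYRF lies between 0.71 and 0.96 below the diagonal except in the row and column of GPR17, and the values above the diagonal are between -0.17 and 0.84.

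Of 130 relations between the 10 genes and the mean levels of 13 other lists, 11 passed by Pearson's r, 8 of them also by Spearman's rho, and 0 passed over the 16 libraries. PDGFRA was related to the other progenitor genes (r = 0.79, adjusted permutation p = 0.0127; rho = 0.81, adjusted p = 0.0091), and r was 0.78 both without the 2 farthest libraries and over the 16 libraries, where the adjusted p was 0.107. GPR17 was related to the other genes of committed and newly formed oligodendrocytes (r = 0.76, adjusted permutation p = 0.0127), with r = 0.66 over the 16 libraries. By r only, GPR17 was also related to the other progenitor genes (r = 0.67, adjusted permutation p = 0.0367; rho = 0.61, adjusted p = 0.112), with r = 0.68 over the 16 libraries. Among these lists MYRF had its highest r with the ligands, receptors and inhibitors (r = 0.82, adjusted permutation p = 0.0065; r = 0.67 over 16 libraries). This was not particular to MYRF. SOX10 (r = 0.75), OLIG1 (0.74), OLIG2 (0.79), NKX2-2 (0.72) and GPR17 (0.62) also passed by r with that list, with adjusted permutation p between 0.0127 and 0.0313. PDGFRA was also related to the markers of microglia (r = 0.60, adjusted permutation p = 0.0313; rho = 0.75, adjusted p = 0.0221; r = 0.70 over 16 libraries) and, by r only, of the hypothalamus (r = 0.62, adjusted permutation p = 0.0379; rho = 0.53, adjusted p = 0.149), where r was 0.32 without the 2 farthest libraries. PDGFRA is also made by fibroblasts of the meninges, and its relation to the 9 fibroblast and meningeal markers that passed the filter did not pass the test (r = 0.13, adjusted permutation p = 0.819).

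The genes with the pattern most like PDGFRA over the 20 libraries, by Spearman's rho among 13657 genes with a mean of at least 1 FPKM, were BAZ1A (0.87), KCNH8 (0.86) and PXDN (0.83). Those most like GPR17 were NEU4 (0.89), a sialidase from the list of committed oligodendrocyte genes, APCDD1 (0.86), an inhibitor of Wnt signalling from the list of ligands, receptors and inhibitors, and SPPL2B (0.84). Those most like MYRF were ABCA2 (0.96), a lipid transporter of oligodendrocytes, and ZYX (0.96).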

How the data were processed

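Total RNA of 20 hypothalami was depleted of rRNA and made into strand-specific libraries. After trimming with fastp, the authors used HISAT2 2.0.5 for alignment to the goat genome ARS1.2 and StringTie 1.3.3b for transcript assembly, and deposited FPKM values per gene, which are used here as deposited. FPKM is scaled to library size and gene length and holds no read counts, so no counting error was calculated. The FPKM of a library summed to between 260199 and 377479, and no libraries held identical values.

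The filter kept genes that reached 0.1 FPKM in 5 or more of the 20 libraries (16771 of 21071). Log2(FPKM + 0.1) was tested with limma 3.58.1 (R 4.3.3) in 1 fit of the 4 stages, with Benjamini-Hochberg adjustment over all genes tested, and the procedure was tested on simulated data. Fold changes are on this scale and understate the change of low genes. Relations over libraries used 100000 two-sided permutations within stages. The 10 lineage genes and the lists of other genes were chosen with earlier results of these data known. Of the other lists, the gene with the smallest adjusted p in M2 vs. D1 was to be named where none was called, and for PDGFRA, GPR17 and MYRF the 3 genes with the highest Spearman's rho. For MYRF, 1 of these 3 is not reported here. For markers of other cell types, only the genes at both ends of the range of that p are named. The labels do not say that goats came from separate litters, so p-values measure the spread between these samples. Alternatives covered the pseudocount, filters, normalization, weights, mapping rate, the replicate block and each library left out. No sequences were used here.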

Additional observations from a re-analysis of the deposited data

Results flagged for a closer look

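Dixon's criterion at the 95% level was applied to the FPKM of 40 groups of 5 libraries, formed by 10 genes at 4 stages. In 4 of the 40 groups a library stood far from the other 4. The level stands for about 1 in 20 groups only where groups are independent and values are normally distributed. These groups share libraries and hold correlated genes, and FPKM was not tested for normality, so the 4 groups are not compared with that rate. The values are FPKM, not the log2 values used in the tests of stage. CSPG4 was highest in M2 replicate 3, at 4.596 FPKM with the next library at 1.363. OLIG1 was lowest in D1 replicate 4, at 18.98 FPKM with the next at 66.89, and this library is 1 of the 4 lowest in mature myelin genes. GPR17 was highest in replicate 5 at M2, at 17.65 FPKM with the next at 5.731, and in replicate 5 at M6, at 13.82 FPKM with the next at 2.836. The labels state no link between same-numbered goats of different stages. Leaving out any 1 library did not make any of the 10 genes a called gene.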

How the results depend on the processing

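None of the 10 genes was called, or had an adjusted p under 0.05, in any comparison under any of the 33 alternatives. Among the 2300 values, 161 changed sign, and the smallest limma adjusted p was 0.07404, for PDGFRA in the later stages vs. D1 with library quality weights (log2 fold change -0.44). Of the values given per gene, the later stages vs. D1 value of CSPG4 turned positive with a pseudocount of 1 (0.0094) and with the mature myelin level as a covariate (0.060), as did BCAS1 with that covariate (0.092). NKX2-2 turned negative with quantile normalization (-0.044), library quality weights (-0.27), the mapping rate as a covariate (-0.60), the replicate block with the mapping rate (-0.31) and without the 4 libraries lowest in mature myelin genes (-0.11). MYRF turned negative with the weights (-0.21), the mapping rate (-0.99) and the block with the mapping rate (-0.98). In M4 vs. D1, NKX2-2 and MYRF turned positive with the mature myelin level as a covariate (0.36 and 0.70) and without the 4 libraries (0.016 and 0.23). With 1 library left out, the later stages vs. D1 ranged from -0.21 to 0.087 for CSPG4, -0.38 to 0.30 for NKX2-2 and -0.58 to 0.41 for MYRF, and M4 vs. D1 from -0.53 to 0.16 for NKX2-2 and -1.01 to 0.47 for MYRF. The cause was not tested.

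The mature myelin covariate and the fit without the 4 libraries were chosen after seeing the data. Pairs of lineage genes that passed fell from 32 to 21 without the 2 farthest libraries of each pair and to 1 without the 4. Genes related to mature myelin fell from 8 to 0 without the 4. In each case fewer libraries and a narrower range of values were tested. Same-numbered libraries of different stages correlated between -0.25 and 0.43 (median -0.01, 7 of 30 pairs over 0.1). These correlations cannot tell whether same-numbered goats shared an origin or handling. With the replicate block 0 of the 10 genes were called. Over all genes, library quality weights raised the number called from 0 to 148 in M2 vs. D1, from 9 to 65 in M4 vs. D1 and from 10 to 223 in the later stages vs. D1. The precision of each value was taken from the spread within stages.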
